A study of Mus musculus with 36 samples.

Results

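The change in gene expression of the palatal shelves between E14.5 and E16.5 was compared between TGFβ3−/− and wild-type (WT) mice of the C57BL/6 strain. The value examined for each gene is a difference of 2 differences, the change from E14.5 to E16.5 in TGFβ3−/− minus the same change in WT, on the log2(FPKM + 1) scale, and it is called the difference in change throughout. A positive value means that the gene went up more, or went down less, in TGFβ3−/−. The comparison used 16 of the 36 libraries, from 8 of the 18 animals, with 2 animals in each of the 4 groups (TGFβ3−/− at E14.5 and E16.5, WT at E14.5 and E16.5) and each animal sequenced in 2 lanes whose values were averaged. The other libraries are from TGFβ3+/− animals at all 3 ages and from TGFβ3−/− and WT animals at E15.5. They shared the estimate of the spread, and their values are given beside the comparison where useful. TGFβ3−/− embryos carry the disrupted allele in every cell from conception and came from matings between heterozygotes. Genotypes were read by PCR, the deleted part of the gene is not named in the sources used here, and the sources do not say whether a replicate was 1 embryo or several, or whether replicates of a group shared a litter. The p-values therefore measure only the spread between these samples.

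In the mouse, the palatal shelves grow from the maxillary processes, rise above the tongue and meet in the midline, after which the epithelial seam between them disappears and the mesenchyme becomes continuous. TGFβ3 is made by the epithelium at the medial edge of the shelves, and mice without it have a cleft palate because the seam does not dissolve. The ligand binds a pair of serine/threonine kinase receptors, which phosphorylate the transcription factors Smad2 and Smad3. Over the same days the shelf mesenchyme forms bone and connective tissue, myoblasts of the soft palate fuse and build sarcomeres, and the oral epithelium begins to stratify. The comparison asks whether any of these programs ran differently in the mutant.

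No gene had a difference in change at an adjusted p-value under 0.05 among 12370 genes tested (percent called 0 in each direction; limma, Benjamini-Hochberg adjustment). At an unadjusted p-value under 0.05, 169 genes (1.37%) were higher and 566 (4.58%) were lower, 735 (5.94%) in all. This split depended on scaling: with the libraries scaled to a common median ratio it was 284 higher and 319 lower, and with a common sum of FPKM it was 279 and 318. The median difference in change over all genes was −0.13 on the deposited scale and −0.03 with either scaling, so values near −0.13 are the level of the whole transcriptome. The middle 90% of genes lay between −0.72 and 0.51. The median standard error was 0.27, and the median 95% interval reached 0.59 to either side, which is a 1.51-fold change. Simulated data took for each gene its spread averaged over the 9 groups, with values drawn independently for each animal. In these data 50 genes were changed at each size, all sizes together. They came from genes with a value in all 18 animals and a mean log2(FPKM + 1) above 2. A difference in change of 2-fold was called for 48.0% of them and one of 4-fold for 90.0%. Moderate differences would thus often be missed with 2 animals a group, and the rates were not measured for genes at lower levels. The median absolute log2 difference between replicates was 0.22 in TGFβ3−/− and 0.21 in WT at E16.5, against 0.13 and 0.15 at E14.5. The rates were not measured at the larger spread of E16.5. Within each genotype, by contrast, the 2 days changed many genes: 1491 genes (11.8%) rose and 1417 (11.2%) fell in TGFβ3−/−, and 1932 (15.2%) rose and 794 (6.26%) fell in WT.

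**Figure D1:**
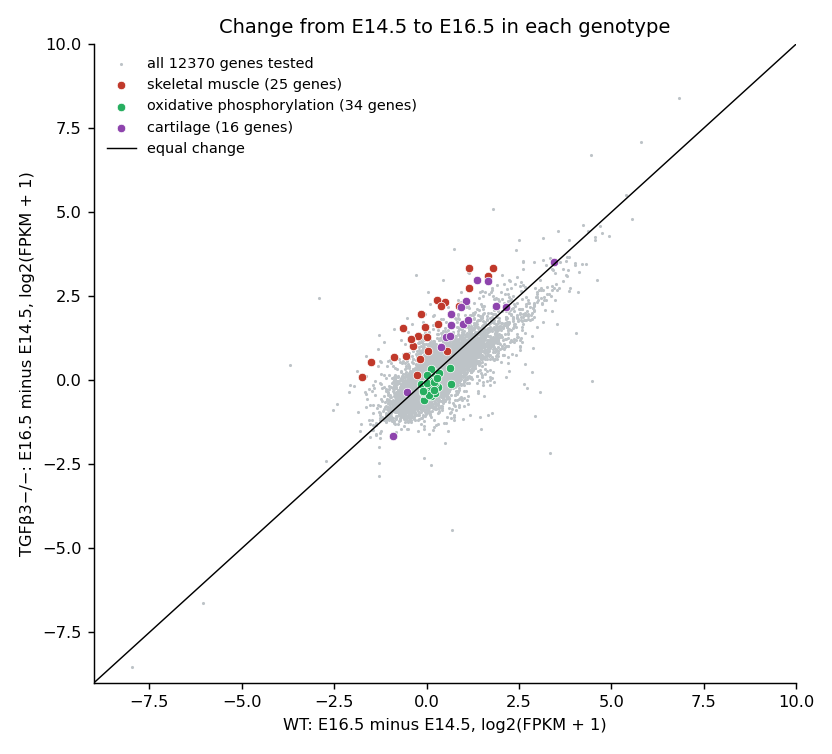
Change from E14.5 to E16.5 on the log2(FPKM + 1) scale in WT (horizontal axis) and in TGFβ3−/− (vertical axis). Each grey point is 1 of the 12370 genes tested, colored points are the tested genes of 3 lists, and the line marks an equal change in both genotypes. The 25 tested skeletal muscle genes lie above the line.

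Several facts of the libraries touch the comparison. Libraries of different ages never shared a lane, and within a genotype the effects of age and lane cannot be told apart, while the genotypes of one age were run together. The number of loci with a value was 28818 and 30380 in the 2 libraries of TGFβ3−/− E16.5 replicate 1 and between 21377 and 24837 in the other 14 libraries, and the 95% interval of a typical (median) gene reached 18.4% and 18.8% of its FPKM to either side there, against 12.3% to 14.8% elsewhere. The median difference in change over all genes was −0.06 without that animal and −0.18 without its partner, TGFβ3−/− E16.5 replicate 2. It was −0.09 without WT E16.5 replicate 1 and −0.15 without WT E16.5 replicate 2, against −0.13 with no animal left out. Tgfb3 RNA (chr12:87397694-87419991, minus strand, mm9, 7 exons) was not lower in the mutant: it was 38.2 and 33.0 FPKM in the 2 TGFβ3−/− animals at E14.5, 42.6 and 42.0 at E16.5, 32.3 and 33.8 in WT at E14.5, and 27.6 and 35.3 in WT at E16.5. Its difference in change was 0.33 ± 0.23 (SE, adjusted p = 0.811), and gene-level FPKM cannot show which exons the RNA holds. At the protein level, the study found no TGFβ3 in TGFβ3−/− palates at E15.5 by western blot. Y-linked RNA moved with genotype at E16.5. Ddx3y was 15.8 FPKM in both TGFβ3−/− animals at E16.5 and had no value in either WT animal, while at E14.5 it was 11.2 and 10.2 in TGFβ3−/− and 14.0 and 1.75 in WT. Xist, the RNA of the inactive X chromosome, was 63.1 and 101 FPKM in WT at E16.5, 0.0479 and 128 in WT at E14.5, and 17.2 in TGFβ3−/− E14.5 replicate 2, and had no value in the other TGFβ3−/− animals. At E16.5 these sex-linked RNAs split the animals as genotype did, so sex and genotype cannot be told apart at that age. The part of sex in the results was not tested. On the X chromosome, 28 of 445 genes (6.29%) had an unadjusted p-value under 0.05, against 5.94% of all genes. That share does not measure an effect of sex.

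Genes of skeletal muscle had the highest median difference in change of the lists with at least 5 tested genes. All 25 tested members (of 30 listed) had a difference in change above 0, with a median of 1.56, where 4078 of 12370 genes were above 0 in all. From E14.5 to E16.5, 10 of the 25 rose in TGFβ3−/− and 0 rose in WT at an adjusted p-value under 0.05. Among all genes, 11.8% and 15.2% rose. The median change of the list was 1.55 in TGFβ3−/− and 0.01 in WT. None of the 25 passed the test of the difference itself. An unadjusted p-value under 0.05 was reached by 2 of them (8%), against 5.94% of all genes.

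Myh3, the embryonic myosin heavy chain, was 14.0 and 32.5 FPKM in TGFβ3−/− at E14.5 and 103 and 73.8 at E16.5, while WT had 53.5 and 18.5 at E14.5 and 46.8 and 17.3 at E16.5. Both mutant animals at E16.5 were above every other animal of the 4 groups, and the WT animals overlapped between ages (difference in change 2.11 ± 0.97 SE, adjusted p = 0.805). Myh8, the perinatal myosin heavy chain, was 2.84 and 7.21 FPKM in TGFβ3−/− at E14.5, 77.6 and 40.2 at E16.5, 7.88 and 4.32 in WT at E14.5 and 29.6 and 6.57 in WT at E16.5. Its change of 3.34 in TGFβ3−/− passed the test (adjusted p = 0.00779), the change of 1.15 in WT did not (adjusted p = 0.285), and the difference between them was 2.20 ± 1.02. The giant sarcomere proteins titin and nebulin had the smallest p-values of the list. Ttn was 0.165 and 0.364 FPKM in TGFβ3−/− at E14.5, 3.14 and 1.24 at E16.5, 0.829 and 0.245 in WT at E14.5 and 0.800 and 0.288 in WT at E16.5 (difference in change 1.26 ± 0.46). Neb was 0.787 and 1.32 FPKM in TGFβ3−/− at E14.5, 11.2 and 6.20 at E16.5, 1.77 and 1.14 in WT at E14.5 and 4.24 and 0.947 in WT at E16.5 (difference in change 1.81 ± 0.74). For both genes the mutant animals at E16.5 exceeded the other 6, and the 2 WT animals of an age differed from each other at E14.5 and at E16.5.

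Acta1, skeletal muscle α-actin, was 26.8 and 65.8 FPKM in TGFβ3−/− at E14.5, 306 and 267 at E16.5, 79.4 and 36.6 in WT at E14.5, and 230 and 63.7 in WT at E16.5. The rise in TGFβ3−/− passed the test (2.74, adjusted p = 0.0204), and the difference in change was 1.58 ± 1.03. Mylpf, the fast regulatory light chain, was 36.5 and 128 FPKM in TGFβ3−/− at E14.5, 355 and 375 at E16.5, 161 and 61.9 in WT at E14.5, and 214 and 68.9 in WT at E16.5 (difference in change 2.11 ± 1.10). In both genes the E14.5 groups overlapped and the mutant animals at E16.5 were above both WT animals of that age.

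Among the regulators, Myog and Myod1, the transcription factors that drive myoblast differentiation, differed by their course in WT. Myog was 16.0 and 31.6 FPKM in TGFβ3−/− at E14.5 and 34.6 and 31.9 at E16.5, against 49.0 and 19.1 in WT at E14.5 and 15.1 and 6.66 at E16.5 (difference in change 2.05 ± 0.98). Myod1 was 6.15 and 11.9 FPKM in TGFβ3−/− at E14.5 and 10.1 and 8.69 at E16.5, against 18.4 and 6.51 in WT at E14.5 and 4.06 and 1.58 at E16.5 (difference in change 1.85 ± 1.01). In WT both genes were lower in each animal at E16.5 than at E14.5, and in the mutant Myod1 overlapped between the ages. The sarcomere genes above had no such lower level in WT at E16.5. Chrng, the fetal subunit of the muscle acetylcholine receptor and one of the genes that the study singled out in TGFβ3−/−, was 1.83 and 3.53 FPKM in TGFβ3−/− at E14.5, 6.35 and 6.12 at E16.5, 6.69 and 2.05 in WT at E14.5, and 3.80 and 1.93 in WT at E16.5 (difference in change 1.38).

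**Figure D2:**
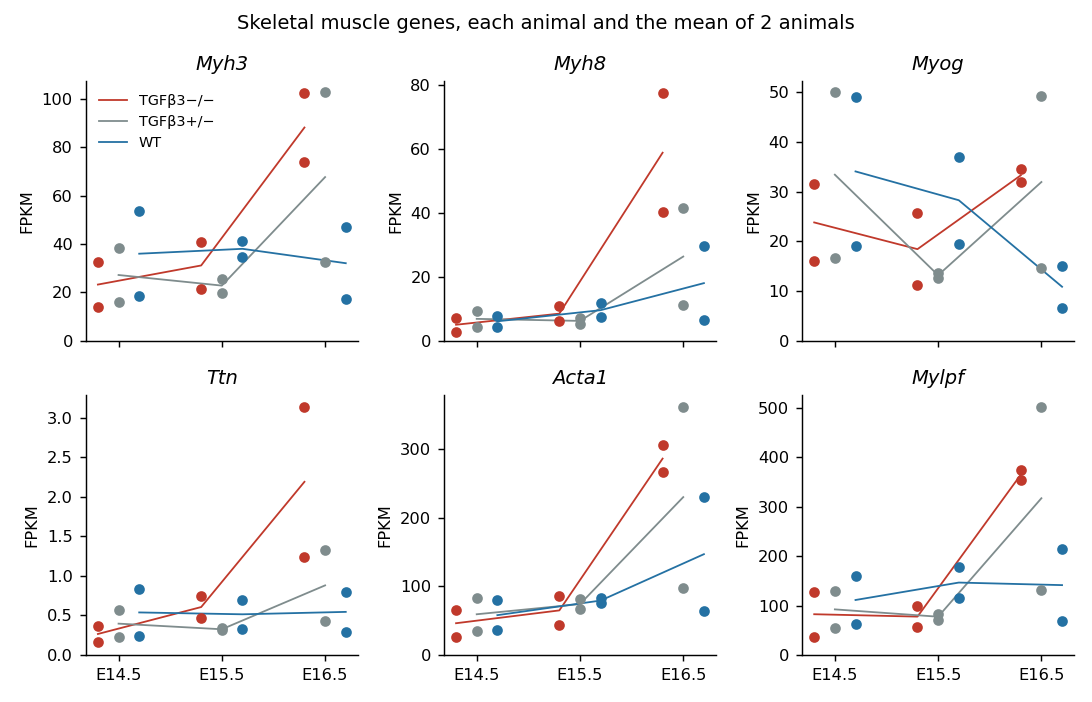
FPKM (vertical axis, linear scale) of 6 muscle genes in each of the 18 animals by age and genotype. Points are animals, each the mean of 2 lanes, and lines join the means of 2 animals. In TGFβ3−/− at E16.5, Myh3 was 103 and 73.8 FPKM, above the WT values of 46.8 and 17.3.

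Summed over the 23 muscle genes with a value in all 8 animals, FPKM was 267 and 730 in TGFβ3−/− at E14.5, 1847 and 1739 at E16.5, 862 and 403 in WT at E14.5, and 1202 and 381 in WT at E16.5. The replicates of 3 of the 4 groups differed by more than 2-fold, and those of TGFβ3−/− at E16.5 were close to each other. For all 23 genes both TGFβ3−/− animals at E16.5 were above both WT animals of that age, where 11.2% of all genes with 8 values were, while at E14.5 this held for 0 of them in either direction (21.3% of all genes were higher in both TGFβ3−/− animals at E14.5 and 10.7% in both WT animals). For 6 of the 23 the 4 pairwise differences between ages in TGFβ3−/− all lay above those in WT, against 4.55% of all genes. These genes mark 1 tissue and are not independent of each other, and in bulk RNA fewer cells of a type and less RNA per cell cannot be told apart. The median of the list remained above 0 when any 1 of the 8 animals was left out, from 0.88 without WT E16.5 replicate 2 to 2.32 without WT E16.5 replicate 1. It was 1.00 without TGFβ3−/− E14.5 replicate 1 and 1.04 without WT E14.5 replicate 1. In the TGFβ3+/− animals, which share the WT animals of this comparison, the median difference in change of the list was 0.73, and the 2 animals at E16.5 stood at −0.15 and 1.49 relative to the mean of 18 animals. At E15.5 the median difference between TGFβ3−/− and WT was −0.36.

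**Figure D3:**
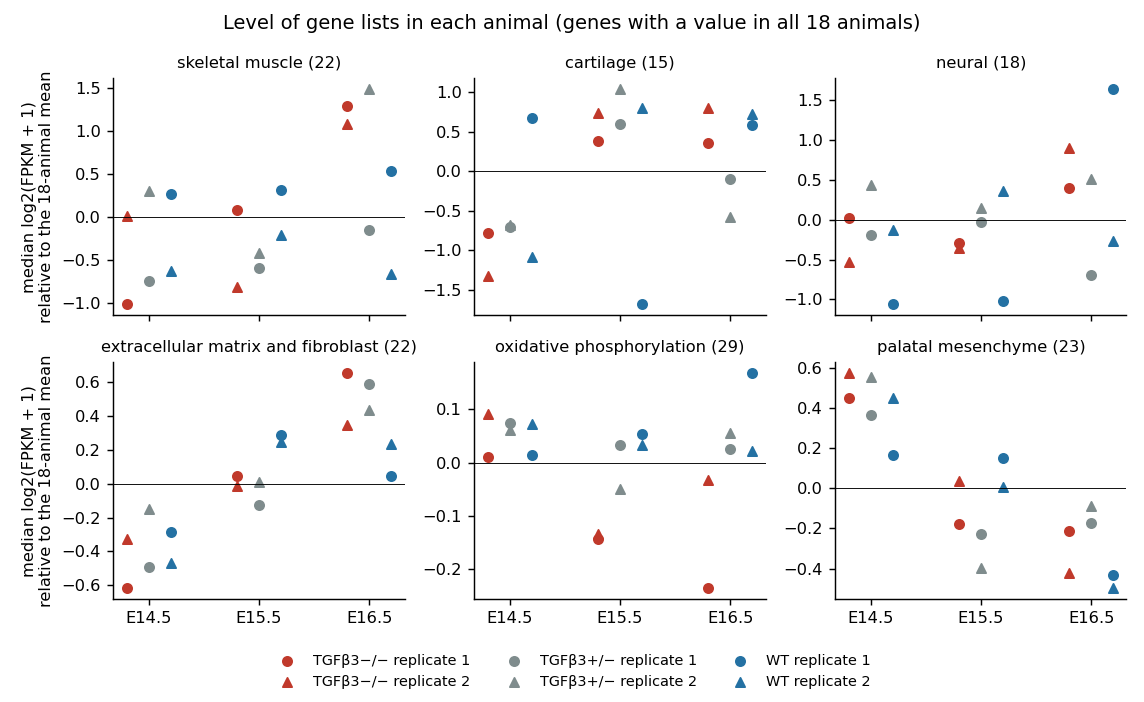
Median log2(FPKM + 1) of 6 gene lists in each of the 18 animals relative to the mean of all animals, by age and genotype. Each point is 1 animal. For skeletal muscle the TGFβ3−/− animals stood at −1.01 and 0.01 at E14.5 and at 1.3 and 1.08 at E16.5.

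Extracellular matrix and fibroblast genes also had mostly positive values. Of 23 tested members (25 listed), 21 had a difference in change above 0, and the median was 0.44. An unadjusted p-value under 0.05 was reached by 5 (21.7%, against 5.94% of all genes), none past adjustment. In TGFβ3−/− 14 of the 23 rose over the 2 days, and in WT 9 rose and 2 fell. Among all genes 11.8% rose in TGFβ3−/−, and in WT 15.2% rose and 6.26% fell. Col12a1, a fibril-associated collagen of dense connective tissue and tendon, was 27.6 and 21.7 FPKM in TGFβ3−/− at E14.5, 77.8 and 46.1 at E16.5, 33.4 and 38.9 in WT at E14.5, and 34.2 and 31.6 in WT at E16.5 (difference in change 1.39 ± 0.40, adjusted p = 0.765). The 4 WT animals lay between 31.6 and 38.9 FPKM, and the groups at E16.5 did not overlap. Col6a3, a chain of the microfibrillar collagen VI that surrounds cells in muscle and connective tissue, was 36.1 and 30.6 FPKM in TGFβ3−/− at E14.5, 152 and 77.2 at E16.5, 40.5 and 37.9 in WT at E14.5, and 54.2 and 70.7 in WT at E16.5 (difference in change 1.03 ± 0.44). Col3a1, the main fibrillar collagen of loose connective tissue beside collagen I, was 375 and 420 FPKM in TGFβ3−/− at E14.5, 713 and 634 at E16.5, 493 and 369 in WT at E14.5, and 468 and 493 in WT at E16.5 (difference in change 0.59 ± 0.25). Levels at E16.5 were higher in both mutant animals for these 3 genes. The muscle list was also highest of the 8 in these 2 animals (1847 and 1739 FPKM summed), and its part in the matrix values was not tested. Over the list, both TGFβ3−/− animals at E16.5 were above both WT animals for 11 of 22 genes with 8 values and below them for 1, where 11.2% and 23.8% of all genes were. At E14.5 they were above for 1 and below for 4, where 21.3% and 10.7% of all genes were. The median of the list stayed between 0.28 and 0.55 when any 1 animal was left out. Eln, which encodes the elastic fiber protein elastin, rose in both genotypes (1.31 in TGFβ3−/−, 1.09 in WT) with a difference of 0.22.

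Cartilage genes had a median difference in change of 0.69 over 16 tested members (20 listed), 15 of them above 0 and 0 with an unadjusted p-value under 0.05. This value rested on 1 animal: it was −0.07 without WT E14.5 replicate 1 and 1.59 without WT E14.5 replicate 2. Col2a1, the fibrillar collagen of cartilage, was 334 and 176 FPKM in TGFβ3−/− at E14.5, 1078 and 835 at E16.5, 997 and 202 in WT at E14.5, and 651 and 772 in WT at E16.5 (difference in change 1.31 ± 1.10). Col11a2, a collagen of the same fibrils, was 31.4 and 20.8 FPKM in TGFβ3−/− at E14.5, 303 and 143 at E16.5, 135 and 24.6 in WT at E14.5, and 134 and 170 in WT at E16.5 (difference in change 1.61 ± 0.95). WT E14.5 replicate 1 was several times above its partner in both genes and near the E16.5 level, and the E16.5 animals of both genotypes overlapped in Col11a2. The median difference in change of the list in TGFβ3+/− was −0.51.

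Bone genes rose in both genotypes, 12 of 15 tested members in TGFβ3−/− and 8 in WT, where 11.8% and 15.2% of all genes rose. Their median difference in change was 0.34. It was 0.05 without WT E14.5 replicate 1 and 0.60 without WT E14.5 replicate 2. At E14.5 both TGFβ3−/− animals were below both WT animals for 7 of 13 genes with 8 values and above them for 0. Among all genes, 10.7% and 21.3% were. At E16.5 they were below for 4 and above for 1, where 23.8% and 11.2% of all genes were. Spp1, which encodes osteopontin, rose from 4.95 and 3.15 to 197 and 256 FPKM in TGFβ3−/− and from 8.29 and 8.16 to 389 and 378 FPKM in WT, a difference in change of 0.13 ± 0.49. Sp7, the osterix transcription factor of osteoblasts, was 18.9 and 22.6 FPKM in TGFβ3−/− at E14.5 and 47.1 and 39.0 at E16.5, against 31.8 and 21.5 in WT at E14.5 and 35.9 and 51.1 at E16.5 (difference in change 0.33 ± 0.33). Spp1 was lower in both TGFβ3−/− animals than in both WT animals at each age, and in Sp7 the genotypes overlapped at each age. For both genes the difference in change was no larger than its standard error. Ifitm5, an osteoblast membrane protein also called BRIL, was 2.96 and 6.13 FPKM in TGFβ3−/− at E14.5, 66.9 and 30.7 at E16.5, 32.2 and 23.6 in WT at E16.5, and 33.8 in WT E14.5 replicate 1, the only WT animal of that age with a value. Its difference in change of 3.41 ± 0.78 (adjusted p = 0.574) rests on that animal, which was also the highest of its age for cartilage.

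**Figure D4:**
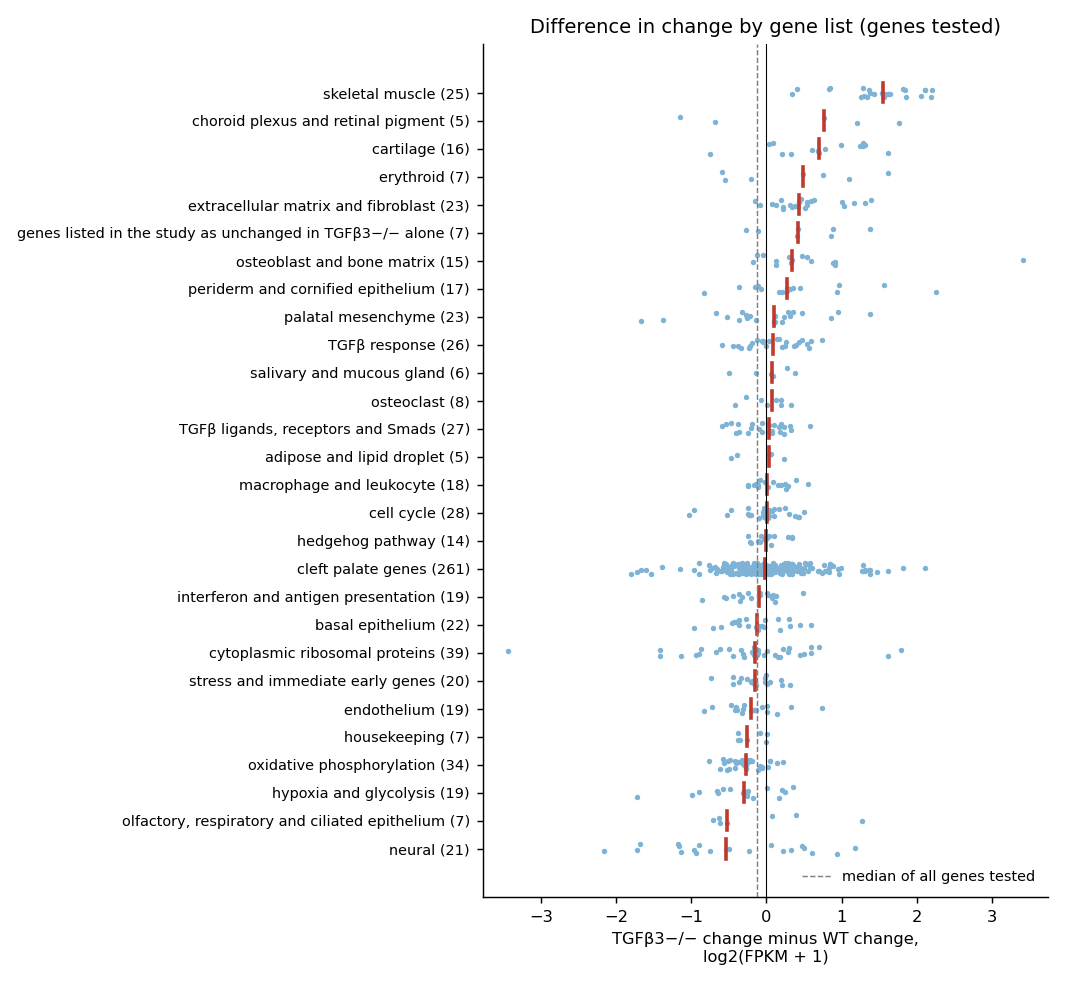
Difference in change (horizontal axis, log2 scale, TGFβ3−/− minus WT) of each tested gene in the lists with at least 5 tested members. Dots are genes, red bars are list medians and the dashed line is the median of all genes, −0.13. The skeletal muscle median is 1.56 and the oxidative phosphorylation median is −0.27.

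The list of palatal mesenchyme genes holds mostly transcription factors that pattern the shelves and drive their growth. The median difference in change over 23 tested members (25 listed) of this list was 0.10, with 13 above 0. It was −0.10 without TGFβ3−/− E14.5 replicate 1 and 0.20 without WT E14.5 replicate 1. At E16.5 both TGFβ3−/− animals were above both WT animals for 12 of the 23 and below them for 2. Among all genes, 11.2% and 23.8% were. At E14.5 they were above for 5 and below for 4, where 21.3% and 10.7% of all genes were. With age 10 of the 23 fell in TGFβ3−/− and 10 in WT, where 11.2% and 6.26% of all genes fell. Barx1, a homeobox factor of the posterior palate, fell by 1.35 in TGFβ3−/− (adjusted p = 0.00398) and by 1.46 in WT (adjusted p = 0.00231). A few members had values apart from the list. Prrx2, a paired-type homeobox factor of craniofacial mesenchyme, was 36.9 and 37.4 FPKM in TGFβ3−/− at E14.5, 14.1 and 11.1 at E16.5, 13.6 and 20.2 in WT at E14.5, and 17.6 and 20.1 in WT at E16.5 (difference in change −1.67 ± 0.47, adjusted p = 0.73). Alx4, another paired-type factor of the frontonasal and maxillary mesenchyme, was 21.2 and 31.0 FPKM in TGFβ3−/− at E14.5, 11.8 and 6.51 at E16.5, 11.7 and 14.1 in WT at E14.5, and 10.1 and 14.7 in WT at E16.5 (difference in change −1.37 ± 0.39). In both genes the mutant animals at E14.5 were above the other 6. Dlx1, a homeobox factor of the upper and lower jaw, went the opposite way: it was 11.4 and 14.2 FPKM in TGFβ3−/− at E14.5, 10.5 and 15.0 at E16.5, 24.1 and 14.4 in WT at E14.5, and 6.83 and 6.04 in WT at E16.5 (difference in change 1.38 ± 0.59). Its neighbor Dlx2 had a difference in change of 0.95.

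For the cleft palate (CP) genes collected by the study, 0 of 261 tested (320 listed) were called. Their median difference in change was −0.02, against −0.13 for all genes, 125 (47.9%) were above 0, against 33.0% of all genes, and 5 higher and 10 lower had an unadjusted p-value under 0.05 (5.75%, against 5.94% of all genes). Of 241 CP genes with 8 values, the 4 differences of TGFβ3−/− all lay above those of WT for 24 and below them for 23, where 4.55% and 14.2% of all genes did. Tbx1 (chr16:18581806-18588113, minus strand, mm9), the T-box gene of the 22q11 deletion syndrome, had the smallest p-value of the CP genes. It was 6.35 and 5.13 FPKM in TGFβ3−/− at E14.5, 12.7 and 12.2 at E16.5, 15.3 and 8.87 in WT at E14.5, and 9.05 and 7.41 in WT at E16.5, and its difference in change was 1.47 ± 0.33 (adjusted p = 0.548). The mutant was below WT at E14.5 and above it at E16.5, with no overlap at either age. The study also singled out a short set of CP genes for TGFβ3−/−, a choice made on these samples. It classed them as unchanged from E14.5 to E15.5 and from E15.5 to E16.5 in TGFβ3−/− but not in TGFβ3+/−. The difference in change against WT is another measure. Of these 8 genes 7 were tested, their median difference in change was 0.42 with 5 above 0, and 0 were called. H19, an imprinted non-coding RNA, was 2673 and 2142 FPKM in TGFβ3−/− at E14.5, 3317 and 3112 at E16.5, 3184 and 2647 in WT at E14.5, and 2586 and 3285 in WT at E16.5 (difference in change 0.42). The differences in change were 0.86 for Meox2, 0.89 for Six3, 0.41 for Foxc2, −0.27 for Lhx8 and −0.11 for Shh, and Kcnj13 was not tested.

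Genes of the stratifying oral epithelium rose in both genotypes. Of 17 tested periderm and cornified epithelium genes (28 listed), 16 rose in TGFβ3−/− and 15 in WT. Among all genes, 11.8% and 15.2% rose. The median difference in change of the list was 0.27. It was −0.11 without TGFβ3−/− E14.5 replicate 2 and 0.83 without TGFβ3−/− E14.5 replicate 1. At E16.5 both TGFβ3−/− animals were above both WT animals for 12 of 13 genes with 8 values and below them for 0. Among all genes, 11.2% and 23.8% were. At E14.5 they were above for 1 and below for 1, where 21.3% and 10.7% of all genes were. Krt4 (chr15:101748967-101755166, minus strand, mm9), a keratin of the suprabasal layers of oral and esophageal mucosa, was 0.355 and 0.536 FPKM in TGFβ3−/− at E14.5, 179 and 124 at E16.5, 1.78 and 1.68 in WT at E14.5, and 59.6 and 57.3 in WT at E16.5. It rose in both genotypes (6.70 and 4.45, adjusted p = 1.68e-05 and 0.000117), and its difference in change was 2.26 ± 0.64 (adjusted p = 0.75). The mutant was lower at E14.5 and higher at E16.5 without overlap, and at E14.5 all 4 values were below 2 FPKM. TGFβ3+/− animals had 159 and 109 FPKM at E16.5. Krt13, the partner keratin of Krt4, was 539 and 334 FPKM in TGFβ3−/− and 205 and 239 in WT at E16.5 (difference in change 1.56 ± 1.32). At E15.5 the median of the list was 1.20 lower on the log2 scale in TGFβ3−/− than in WT, and at E16.5 it was 0.61 higher. The 2 WT animals at E15.5 were far apart, at 1.96 and 0.30 relative to the mean of 18 animals (13 genes). On that scale TGFβ3−/− stood at −0.11 and −0.65 at E15.5 and TGFβ3+/− at −0.80 and −0.57. WT at E16.5 stood at 0.74 and 0.98, below WT E15.5 replicate 1. Basal epithelium genes, the keratins and junction proteins of the lower layers, had a median of −0.13, which ran from −0.39 without TGFβ3−/− E14.5 replicate 2 to 0.14 without WT E14.5 replicate 1.

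Genes of the TGFβ pathway had medians near 0, where the median of all genes was −0.13. With the 2 scalings given above they were 0.13 and 0.14 for ligands, receptors and Smads, and 0.19 and 0.21 for response genes. All genes then stood at −0.03. Among 27 tested ligands, receptors and Smads (28 listed) the median difference in change was 0.03, with 15 above 0 and 18 above the median of all genes. An unadjusted p-value under 0.05 was reached by 1 of them (3.7%, against 5.94% of all genes). Tgfb1, another TGFβ ligand, rose in both genotypes, by 1.08 in TGFβ3−/− and 1.03 in WT, with a difference of 0.05 ± 0.27. Tgfb2, the ligand of the palatal mesenchyme, had a difference of 0.24 ± 0.22. The type II receptor Tgfbr2 was 10.3 and 12.03 FPKM in TGFβ3−/− at E14.5, 16.6 and 16.8 at E16.5, 11.5 and 11.7 in WT at E14.5, and 15.1 and 15.3 in WT at E16.5 (difference in change 0.18). Bmp7, a bone morphogenetic protein, was the member with the unadjusted p-value under 0.05: it was 22.9 and 21.0 FPKM in TGFβ3−/− at E14.5, 14.3 and 14.1 at E16.5, 17.3 and 18.4 in WT at E14.5, and 15.2 and 17.5 in WT at E16.5 (difference in change −0.47 ± 0.19). The inhibitory Smad gene Smad7, a direct target of the pathway, was 8.78 and 7.14 FPKM in TGFβ3−/− at E14.5, 4.96 and 3.80 at E16.5, 6.24 and 7.10 in WT at E14.5, and 5.62 and 6.17 in WT at E16.5 (difference in change −0.59). Of 26 tested response genes (28 listed), 14 were above 0 and 19 above the median of all genes, and the median was 0.09. Of the 26, 2 (7.69%, against 5.94% of all genes) had an unadjusted p-value under 0.05, both higher. These were Col3a1 and the gelatinase gene Mmp2, which was 113 and 106 FPKM in TGFβ3−/− at E14.5, 160 and 141 at E16.5, 128 and 113 in WT at E14.5, and 111 and 133 in WT at E16.5. Hedgehog pathway genes, which link epithelium and mesenchyme in the growing shelf, had a median of −0.01 over 14 tested members, against −0.13 for all genes. Their target Gli1 fell by 0.78 in TGFβ3−/− and by 0.75 in WT.

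Genes of mitochondrial oxidative phosphorylation lay below the median of all genes. Of 34 tested members (39 listed) 5 were above 0, and the median difference in change was −0.27. At an unadjusted p-value under 0.05, 4 (11.8%) were lower, against 4.58% of all genes. For 12 of 29 members with 8 values the 4 differences of TGFβ3−/− all lay below those of WT, where this held for 14.2% of all genes. The median was −0.17 and −0.16 with the 2 other scalings, −0.15 without TGFβ3−/− E16.5 replicate 1 and −0.40 without TGFβ3−/− E16.5 replicate 2. Ndufs7, a subunit of complex I, was 46.1 and 41.1 FPKM in TGFβ3−/− at E14.5, 32.1 and 33.6 at E16.5, 34.4 and 37.6 in WT at E14.5, and 43.9 and 40.6 in WT at E16.5 (difference in change −0.62 ± 0.19). Sdhc, a membrane anchor of complex II, was 38.1 and 37.8 FPKM in TGFβ3−/− at E14.5, 23.6 and 31.9 at E16.5, 32.0 and 34.6 in WT at E14.5, and 34.9 and 35.02 in WT at E16.5 (difference in change −0.52 ± 0.17). Both genes were higher in the mutant at E14.5 and lower at E16.5. The animal with the lowest level of the list among these 8 was TGFβ3−/− E16.5 replicate 1, at −0.24 relative to the mean of 18 animals, which is also the animal with the widest FPKM intervals, and its partner stood at −0.03.

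Glycolysis and hypoxia genes had a median of −0.29 over 19 tested members, 5 of them above 0. At an unadjusted p-value under 0.05, 3 (15.8%) were lower, against 4.58% of all genes. The glycolytic mutase gene Pgam1 was 110 and 101 FPKM in TGFβ3−/− at E14.5, 70.3 and 57.3 at E16.5, 109 and 105 in WT at E14.5, and 116 and 125 in WT at E16.5 (difference in change −0.90 ± 0.31). The mutant animals at E16.5 were apart from the other 6. Ankrd37, a target of the hypoxia-inducible factor, was 3.49 and 3.14 FPKM in TGFβ3−/− at E14.5, 2.20 and 4.87 at E16.5, 2.08 and 1.94 in WT at E14.5, and 5.71 and 13.8 in WT at E16.5 (difference in change −1.72 ± 0.59). Ribosomal protein genes had a median of −0.15, next to that of all genes. Cell cycle genes fell with age in both genotypes, 19 of 28 tested in TGFβ3−/− and 20 in WT. Among all genes, 11.2% and 6.26% fell. The median difference in change of the list was 0.00, against −0.13 for all genes.

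The value of the neural genes turned on 1 animal. Their median difference in change was −0.54 over 21 tested members, and it ran from −1.58 without WT E16.5 replicate 2 to 0.53 without WT E16.5 replicate 1. Tubb3, the neuronal β-tubulin, was 106 and 49.5 FPKM in TGFβ3−/− at E14.5, 101 and 142 at E16.5, 17.2 and 68.9 in WT at E14.5, and 254 and 66.2 in WT at E16.5. The 2 WT animals of each age lay on both sides of a mutant animal. Endothelial genes had a median of −0.20 with 5 of 19 above 0. Lyve1, a hyaluronan receptor of lymphatic vessels and macrophages, was 1.56 and 1.62 FPKM in TGFβ3−/− at E14.5, 4.67 and 5.38 at E16.5, 0.741 and 0.748 in WT at E14.5, and 7.67 and 4.14 in WT at E16.5 (difference in change −0.72). Macrophage and leukocyte genes rose in both genotypes, 16 of 18 tested in TGFβ3−/− and 15 in WT, where 11.8% and 15.2% of all genes rose. Their median difference in change was 0.01, against −0.13 for all genes. All 7 tested genes of olfactory and respiratory epithelium and motile cilia, tissues that border the palate, rose in both genotypes, and their median was −0.52 (0.08 without WT E16.5 replicate 2 and −0.91 without WT E16.5 replicate 1).

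The genes with the smallest p-values among those whose differences did not overlap between genotypes are described next, whether or not a list held them, 12 in each direction and none of them called. Because they were chosen by these values, the values are a description. Of those lower in TGFβ3−/−, Rsph3a (chr17:8138518-8172689, plus strand, mm9), which encodes a radial spoke protein of cilia, was 11.4 and 12.6 FPKM in TGFβ3−/− at E14.5, 14.1 and 15.5 at E16.5, 7.41 and 5.20 in WT at E14.5, and 23.5 and 19.4 in WT at E16.5 (difference in change −1.35 ± 0.23, adjusted p = 0.389). It rose in WT (adjusted p = 9.34e-05), and the change of 0.28 in TGFβ3−/− did not pass the test. Cdk19, a kinase of the Mediator complex, was 12.9 and 11.8 FPKM in TGFβ3−/− at E14.5, 7.71 and 9.12 at E16.5, 6.75 and 7.75 in WT at E14.5, and 10.1 and 9.80 in WT at E16.5 (difference in change −0.92 ± 0.16). It fell in the mutant and rose in WT, each past the test within the genotype. Mrps17, a protein of the small mitochondrial ribosome subunit, was 28.5 and 32.8 FPKM in TGFβ3−/− at E14.5, 15.8 and 9.22 at E16.5, 22.6 and 22.4 in WT at E14.5, and 30.7 and 34.9 in WT at E16.5 (difference in change −1.79 ± 0.37). Arf5, a small GTPase of the Golgi, was 121 and 119 FPKM in TGFβ3−/− at E14.5, 92.0 and 82.4 at E16.5, 75.4 and 77.6 in WT at E14.5, and 110 and 110 in WT at E16.5 (difference in change −0.97 ± 0.20). The other 8, with differences in change from −0.99 to −0.58, were Chchd6, Nat9, Pus10, Pwwp2a, Fahd2a, Dnajc12, Alkbh4 and Slc25a20. Slc25a20, the carnitine carrier of the mitochondrial inner membrane, fell by 0.74 in TGFβ3−/− (adjusted p = 0.000738) and moved by −0.16 in WT (adjusted p = 0.262).

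Of those higher in TGFβ3−/−, Krt4, Tbx1 and Col12a1 were given above. Slc43a3, a nucleobase transporter, was 11.0 and 12.8 FPKM in TGFβ3−/− at E14.5, 15.2 and 13.8 at E16.5, 15.0 and 15.1 in WT at E14.5, and 10.8 and 10.7 in WT at E16.5 (difference in change 0.71 ± 0.15, adjusted p = 0.443). Uggt1, the glucosyltransferase that checks the folding of glycoproteins in the endoplasmic reticulum, was 10.3 and 10.1 FPKM in TGFβ3−/− at E14.5, 14.3 and 14.8 at E16.5, 11.6 and 12.2 in WT at E14.5, and 10.4 and 10.8 in WT at E16.5 (difference in change 0.63 ± 0.13). These 2 genes had replicates close to each other in each of the 4 groups. Zim1, an imprinted zinc finger gene, was 9.05 and 9.48 FPKM in TGFβ3−/− at E14.5, 26.9 and 26.8 at E16.5, 22.1 and 12.3 in WT at E14.5, and 17.1 and 17.3 in WT at E16.5 (difference in change 1.39 ± 0.33). Lama2, the laminin α2 chain of the basement membrane around muscle fibers and Schwann cells, was 3.17 and 4.17 FPKM in TGFβ3−/− at E14.5, 9.68 and 9.30 at E16.5, 3.31 and 3.98 in WT at E14.5, and 4.41 and 4.25 in WT at E16.5 (difference in change 0.98 ± 0.26). At E14.5 its groups overlapped, and at E16.5 both mutant animals were above WT. The remaining 5 were Fgd4, 2810403A07Rik, Gm17386, Tnrc6b and Gm14435, with differences in change from 0.70 to 1.74. The locus of Gm14435 covered as little as 20.7% of its exonic bases in one of the animals, so its value is uncertain.

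**Figure D5:**
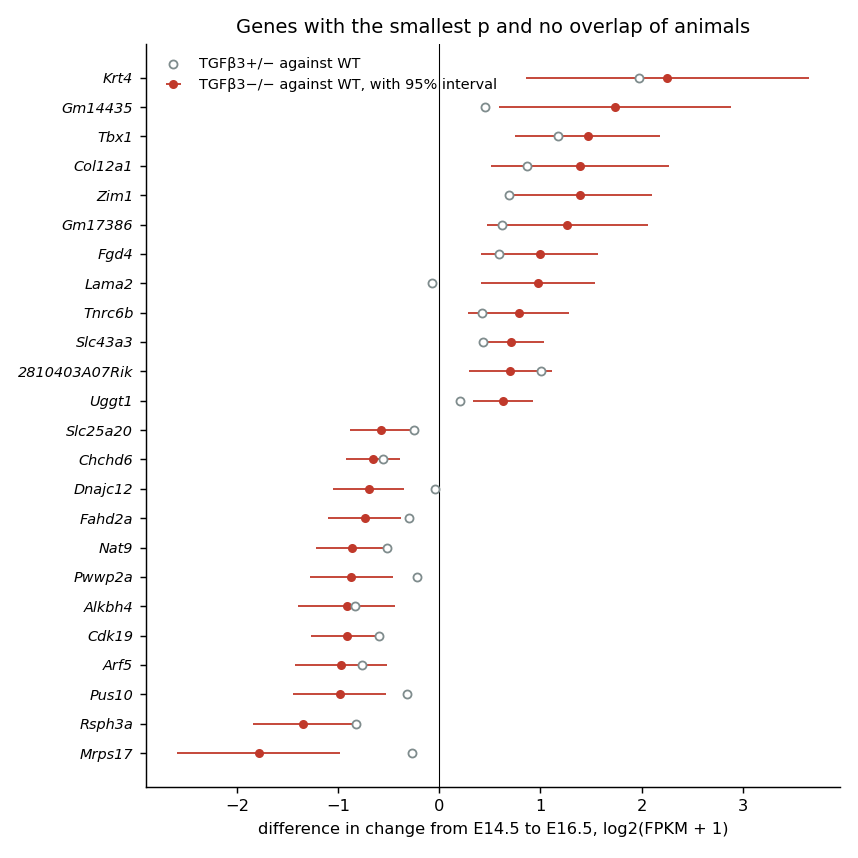
Difference in change (horizontal axis, log2 scale) of 24 genes, 12 higher and 12 lower in TGFβ3−/−. They have the smallest unadjusted p-values in each direction among genes whose 4 differences between ages did not overlap between TGFβ3−/− and WT. Filled points are TGFβ3−/− against WT with unadjusted 95% intervals, and open circles are TGFβ3+/− against the same WT animals. Rsph3a lies at −1.35 and Krt4 at 2.26.

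The smallest adjusted p-value of all genes was 0.0628, for Ptpmt1 (chr2:90750870-90758415, minus strand, mm9), a mitochondrial phosphatase, which was singled out after its values were seen. It had a value in 1 animal of each E14.5 group, 11.3 FPKM in TGFβ3−/− and 0.013 FPKM in WT, against 4.70 and 5.07 in TGFβ3−/− and 6.95 and 6.46 in WT at E16.5. The locus behind the lowest value covered 2.73% of the exonic bases, so the difference in change of −3.99 ± 0.24 rests on a fragment of the gene. In TGFβ3+/− the same comparison with WT called 0 of 12466 genes by limma, with 136 higher (1.09%) and 471 lower (3.78%) at an unadjusted p-value under 0.05. The 2 comparisons share the 4 WT animals, so their values are not independent of each other. Among the genes above, the difference in change in TGFβ3+/− was 1.97 for Krt4, 1.17 for Tbx1, 0.87 for Col12a1, −0.07 for Lama2 and −0.83 for Rsph3a.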

How the data were processed

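Poly(A) RNA of palatal shelves was sequenced on an Illumina HiSeq. Per the methods and the submitters' processing notes, the authors checked reads with FastQC 0.10.1, aligned them to mm9 with TopHat 1.4.1 and assembled them with Cufflinks 1.3.0. They deposited FPKM (fragments per kilobase of transcript, scaled to the mapped fragments of the library) per locus and library, with 95% intervals and without gene names, so read counts were not used. Loci were joined to genes by overlap with GENCODE vM1 exons on mm9, summing the FPKM of a gene's loci by exonic bases covered. A gene sharing its locus with another can be missing in a library. Of 26233 genes searched, 17270 had a value, 14050 had at least 1 FPKM in at least 2 animals, and 12370 could be tested.

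Lanes were averaged and log2(FPKM + 1) was fitted over 9 groups (18 animals) with limma 3.58.1 in R 4.3.3 (mean-variance trend, Benjamini-Hochberg adjustment, threshold 0.05). Fold changes on this scale understate the change of low genes. Animals were grouped by title, although 3 of the 4 E15.5 TGFβ3+/− libraries carry age 14.5 in another label. The procedure was tested on simulated data over 10335 genes, with the spread of a gene averaged over the 9 groups. There 7 of 10135 unchanged genes were called. The comparison and the gene lists were chosen with earlier results of these data known, so list counts and medians are descriptions. Named genes are the 12 in each direction with the smallest unadjusted p among genes whose differences did not overlap, Tgfb3, the study's 8 genes, and of each list the 2 highest in FPKM and the 2 smallest in p. Further members named for their known role, and genes called only under another setting, were chosen after their values were seen. Some members of the lists are not reported here.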

Additional observations from a re-analysis of the deposited data

How the results depend on the processing

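Over 23 other settings the number of genes called in the comparison of TGFβ3−/− with WT stayed at 0 except as follows. The count of genes lower was 2 with a pseudocount of 0.1 (Ptpmt1 and Srp54c), 1 with median scaling (Ptpmt1) and 1 with the higher lane only (Chka). The count of genes higher ranged from 0 to 1 when single animals were left out, the 1 being Gm3699 without TGFβ3−/− E16.5 replicate 1 (4.86, adjusted p = 0.0151) and Srxn1 without WT E16.5 replicate 2 (adjusted p = 0.0025). For TGFβ3+/− against WT the count was 2 with a pseudocount of 0.1 and 1 with the lower lane only, and 0 to 1 with single animals left out. Gm3699 had 2.06 as its value and changed sign to −0.54 with the lower lane only, to −0.73 without TGFβ3−/− E16.5 replicate 2 and to −0.38 when values covering under 50% of exonic bases were left out, an alternative chosen after seeing the data. Srxn1 had 0.99 and changed sign to −0.59 when a single locus was used per gene. The cause was not tested. Without the 2 animals holding both Xist and Y-linked RNA, also chosen after seeing the data, the muscle median was 2.56. Whether animals with the same replicate number belong together is not given in the sources. The difference of replicate 1 from replicate 2 was compared between groups by correlation, which cannot exclude a pairing. The correlation ran from −0.35 to 0.045 for the 6 pairs among the 4 groups. Over all 36 pairs of the 9 groups it ran from −0.52 to 0.34, with 6 above 0.1. With a replicate block 0 genes were called, and 149 were higher and 544 lower at an unadjusted p-value under 0.05. With 2 animals a group, precision is limited by the spread between animals.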

Other observations

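Osteoclast genes rose in both genotypes, 6 of 8 tested in TGFβ3−/− and 6 in WT, where 11.8% and 15.2% of all genes rose. Their median difference in change was 0.07 (−0.16 without WT E14.5 replicate 1 and 0.21 without WT E14.5 replicate 2). Both TGFβ3−/− animals were below both WT animals for 4 of 7 genes with 8 values at E14.5 and for 5 at E16.5. Among all genes, 10.7% and 23.8% were. They were above for 0 at either age, where 21.3% and 11.2% of all genes were. Ctsk, the collagen-degrading cathepsin of these bone-resorbing cells, was 16.5 and 21.7 FPKM in TGFβ3−/− at E14.5, 86.3 and 105 at E16.5, 30.7 and 21.4 in WT at E14.5, and 157 and 185 in WT at E16.5. At E16.5 the WT animals were above the mutant animals, and the difference in change was −0.42 ± 0.40 (SE). Mmp9, their gelatinase, rose by 2.29 in TGFβ3−/− and 2.11 in WT.

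Interferon and antigen presentation genes also rose in both genotypes, 13 of 19 tested in TGFβ3−/− and 15 in WT. Among all genes, 11.8% and 15.2% rose. The median difference in change of the list was −0.10. Isg15, a ubiquitin-like protein induced by interferon, was 1.08 and 1.05 FPKM in TGFβ3−/− at E14.5, 1.67 and 2.27 at E16.5, 1.06 and 0.613 in WT at E14.5, and 4.75 and 2.92 in WT at E16.5 (difference in change −0.87 ± 0.33). Erythroid genes had a median of 0.49 over 7 tested members, which ran from 0.14 without WT E14.5 replicate 2 to 0.84 without WT E14.5 replicate 1. It turned to −0.21 with genes without a locus set to 0 FPKM and to −0.16 without the 2 animals holding both Xist and Y-linked RNA. Hbb-b1, an adult β-globin with a near-identical neighbor, was lower in both TGFβ3−/− animals at E14.5 (535 and 635 FPKM) than in either WT animal of that age (1050 and 2053 FPKM). Stress and immediate early genes had a median of −0.16, with 5 of 20 above 0. At an unadjusted p-value under 0.05, 1 (5%) was lower, against 4.58% of all genes.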
